A study of Mus musculus with 21 samples.

Results

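Axon guidance ligands and receptors were followed in mouse bone marrow stroma during growth of human acute myeloid leukemia (AML). Members were chosen by gene symbol alone, as the genes of the semaphorin, plexin, neuropilin, netrin, slit, robo, ephrin, Eph and Unc5 families, and 69 of the 26852 genes in the table matched. Of these, 49 had a mean over the 21 libraries that passed a filter near 3.3 (log2 value, about 10 normalized counts) and were tested among 12980 genes that passed the same filter. The other 20 fell below it. Plxnb3 (mean 3.3205) and Efna4 (3.48) lay just inside the filter and Sema6c (3.17) and Sema4a (3.13) just outside, and the antisense genes Plxna4os1 and Plxna4os2, which match the symbol pattern, were among the 20.

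These families steer growing axons. Secreted semaphorins, netrins and slits act over a distance, while ephrins and the membrane-bound semaphorins act between touching cells, and neuropilins, plexins, Unc5 proteins, robos and Eph kinases receive the signals. Outside the nervous system the same genes pattern blood vessels, and in bone semaphorins and ephrins take part in the exchange between osteoblasts and osteoclasts. Neuropilins are also co-receptors of vascular endothelial growth factor.

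The libraries came from Nes-low cells, the mesenchymal cells with weak green fluorescence in Nestin-reporter NSG mice, a strain that lacks T, B and NK cells. Mice were 8 to 12 weeks old when transplanted, received no conditioning, and carried HL60 or ML1, human AML lines that release a lipid-permeable mCherry which nearby cells take up. There were 3 libraries from unengrafted mice (ctrl), and 3 for each line from each of 3 kinds of sample: early mesenchymal cells without mCherry (early ch-), early cells that had taken it up (early ch+), and cells from late leukemia, which were not split by mCherry (late). The lines pooled give 6 libraries in each engrafted group. All groups share the host strain and the reporter, each line stands for 1 leukemia, and blood cells of both species were depleted through CD45 before a sort stained for CD45, Ter119 and CD31. The labels go against themselves at 1 point: the treatment field of the 3 late ML1 libraries reads as unengrafted although their titles and time point place them in late ML1 leukemia. They were kept as late, and each line is also given apart. The extraction text common to all samples speaks of sorted CD31-positive cells, while the cell type field names Nes-low cells. Nothing in the labels says that libraries of a group are separate animals, and the study took early ch- and early ch+ cells from the same marrows without the labels pairing their libraries, so p-values measure the spread between these libraries only and the early groups were compared unpaired. The read depth of each library is unknown, and the summed normalized signal, in units of 1000000, ran from 7.26 to 9.02 in late libraries against 11.86 to 14.23 in ctrl.

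The cell type label was checked against marker lists. The CAR cell list (CXCL12-abundant reticular cells) summed to 15.62 to 16.24 (median 15.83) in ctrl on the log2 scale and the osteoblast list to 20.26 to 20.71 (median 20.41), with Cxcl12 (mean 15.19) and Col1a1 (mean 20.32) the genes of highest value, not divided by length. The endothelial list summed to 8.51 to 8.80 (median 8.56) in ctrl, with Cdh5 (mean 6.56) its gene of highest value. Of the 10 endothelial genes, 8 passed the filter, while Tie1 (mean 3.00 in ctrl) and Egfl7 (2.88) did not. Chondrocyte and smooth muscle markers summed in ctrl to medians of 16.75 and 14.81. In bulk libraries such as these, fewer cells of a type and less RNA per cell cannot be told apart.

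All values are normalized log2 values, and fold changes are differences of group means on that scale with their standard errors. A gene was called where limma's 2-sided test across all 12980 genes gave an adjusted p under 0.1. Late libraries differed from ctrl in 31 of the 49 tested members, 9 higher and 22 lower, where 2795 of all tested genes (21.5%) were called, 10.2% higher and 11.4% lower. The median log2 fold change was -0.48 over the members and 0.02 over all tested genes. Late against early ch+ gave 28 members, 7 higher and 21 lower, with 19.7% of all genes called, 8.78% higher and 10.9% lower. The median there was -0.26 against 0.02. Early leukemia gave fewer calls, where the comparisons ask what differs in mesenchymal cells that have or have not taken up the leukemia's label. Early ch+ differed from ctrl in 8 members, 5 higher and 3 lower, with a background of 6.16% (3.41% higher, 2.75% lower). Early ch- differed from ctrl in 3, with 2 higher and 1 lower, against 1.92% (1.13% higher, 0.786% lower), and in 1 without ctrl replicate 374 or 375. Early ch+ differed from early ch- in 9, with 6 higher and 3 lower, against 6.25% (3.57% higher, 2.67% lower). In all, 33 of the 49 members were called in at least 1 of these 5 comparisons, as were 31.3% of all tested genes. The comparisons share libraries and are not independent of each other, and these shares describe the list without testing it. Scaling each library to its total moved the median of all genes from 0.02 to 0.71 in late against ctrl, from 0.02 to 0.63 in late against early ch+ and from -0.02 to 0.13 in early ch+ against early ch-. This scaling shifts every gene of a comparison by the same amount, so the 9 of 79 calls that changed sign, named with their genes, did so by the size of their fold change, and this is no separate test of a member. With it 64% of all genes were called in late against ctrl.

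**Figure D1:**
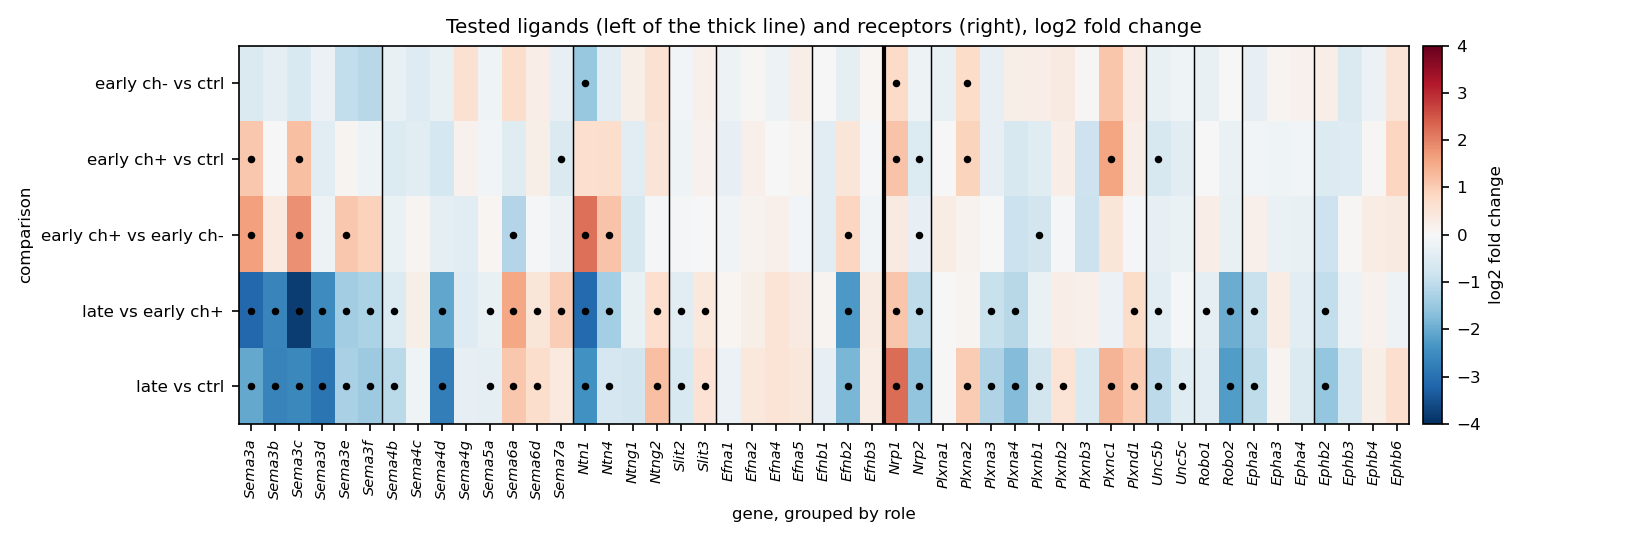
Log2 fold change of each of the 49 tested members (columns, grouped by role, ligands left of the thick line) in 5 comparisons (rows), with a black dot where the adjusted p was under 0.1. Class 3 semaphorins and netrins Ntn1 and Ntn4 are blue in late, 22 of the 31 members called in late against ctrl were lower, and Nrp1 is red in all rows. Scaled to library totals, Ntn4, Slit2, Sema5a and Unc5c change sign in late against ctrl, and Unc5b, Sema5a, Robo1, Sema4b and Slit2 in late against early ch+.

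Class 3 semaphorins, the secreted members that bind neuropilins and plexins, had the lowest median log2 fold change of the roles in late against ctrl. All 6 tested genes of the 7 in the class were called lower in late than in ctrl (11.4% of all tested genes) and lower than in early ch+ (10.9%). The class medians were -2.31 and -2.58, against 0.02 over all tested genes in either comparison. Sema3a, a repellent ligand of Nrp1 known to protect bone from resorption (ENSMUSG00000028883, chr5:13125414-13602565), was at 8.34, 8.45 and 8.73 in ctrl, 7.70 to 8.15 (median 7.97) in early ch- and 9.36 to 9.91 (median 9.54) in early ch+. In late it was at 6.72, 6.92 and 7.49 in late HL60 and 5.65, 5.69 and 6.21 in late ML1. Early ch+ libraries were the highest of all, every late library was below every ctrl library, and late ML1 was lower than late HL60 with no overlap between any of these pairs. The fold change was -2.06 ± 0.27, adjusted p = 2.4e-06 in late against ctrl, 1.08 ± 0.27, adjusted p = 0.0197 in early ch+ against ctrl and 1.64 ± 0.22, adjusted p = 8.61e-06 in early ch+ against early ch-. Early ch- against ctrl did not pass (-0.56 ± 0.27, adjusted p = 0.417), although the groups did not overlap.

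Sema3c, a secreted ligand of both neuropilins (ENSMUSG00000028780, chr5:17574281-17730268), had the same order of groups. It was at 7.78, 7.81 and 7.85 in ctrl, 6.52 to 7.87 (median 7.08) in early ch- and 8.86 to 9.27 (median 9.02) in early ch+, and at 6.03, 6.08 and 6.30 in late HL60 and 4.12, 4.16 and 4.78 in late ML1. The 6 early ch+ libraries lay above all others and the 6 late ones below all others, while early ch- and ctrl overlapped. Late against early ch+ gave -3.78 ± 0.31, adjusted p = 3.02e-10, the largest change of any member in the pooled comparisons. It fell against ctrl (-2.57 ± 0.38, adjusted p = 1.02e-05) and was higher in early ch+ than in early ch- (1.84 ± 0.31, adjusted p = 0.000163). The higher level in early ch+ than in ctrl (1.217 ± 0.38, adjusted p = 0.068) was no longer called without ctrl replicate 373, 374 or 375 or early ch+ replicate 523, at 1.17 to 1.24.

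Sema3d, a secreted semaphorin of heart and vein patterning (ENSMUSG00000040254, chr5:12383385-12588948), was called in the late comparisons and not in the early ones. Its ctrl libraries were at 10.85, 10.97 and 10.99, early libraries at 10.57 to 10.80 (median 10.73) in early ch- and 10.03 to 10.90 (median 10.58) in early ch+, and late libraries at 8.81, 8.85 and 9.09 in late HL60 and 6.41, 7.37 and 7.54 in late ML1. All late libraries were below all others, and late ML1 below late HL60. The change against ctrl was -2.93 ± 0.35, adjusted p = 4.61e-07, a 7.60-fold lower normalized level, and early ch+ against early ch- gave -0.19 ± 0.28, adjusted p = 0.816. Sema3b, which signals through neuropilins, fell in late by a similar amount (-2.66 ± 0.33, adjusted p = 8.2e-07). Sema3f, a ligand of Nrp2, fell less (-1.45 ± 0.46, adjusted p = 0.0262), as did Sema3e, which binds Plxnd1 without a neuropilin (-1.28 ± 0.38, adjusted p = 0.0191), and both overlapped ctrl. Sema3e was also higher in early ch+ than in early ch- (1.09 ± 0.31, adjusted p = 0.0375). The late call of Sema3f was lost without ctrl replicate 374 (-1.24) and with library totals (-0.76), that of Sema3e without ctrl replicate 375 (-0.87) and with library totals (-0.59), and the early call of Sema3e without early ch- replicate 529 or early ch+ replicate 523 (0.90 to 0.97). With the late ML1 libraries left out, an alternative added after seeing the data, Sema3e (-1.16) and Sema3f (-0.87) were not called in late against ctrl. Sema3a, Sema3c, Sema3d and Sema3e all lie on chromosome 5, between 12383385 and 17730268 in GRCm38.

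Membrane-bound semaphorins went in both directions. Of 8 tested of 13, late against ctrl called 2 higher and 3 lower, where 10.2% and 11.4% of all tested genes were called. Sema4d, the Plxnb1 ligand by which osteoclasts restrain bone formation (ENSMUSG00000021451, chr13:51685529-51793747), was at 9.79, 10.06 and 10.64 in ctrl, 9.57 to 10.22 (median 9.84) in early ch- and 9.31 to 9.57 (median 9.47) in early ch+, and at 7.85, 8.63 and 8.91 in late HL60 and 5.81, 6.21 and 6.87 in late ML1. Late libraries lay below every other library, those of ML1 furthest. The change was -2.78 ± 0.41, adjusted p = 1.14e-05 against ctrl. Sema4b, another transmembrane class 4 semaphorin, was at 8.61, 9.05 and 9.61 in ctrl, 8.37 to 9.24 (median 8.82) in early ch- and 8.14 to 8.77 (median 8.59) in early ch+, and 7.70 to 8.27 (median 7.98) in late. Late was below ctrl without overlap (-1.09 ± 0.21, adjusted p = 0.000346, not called with library totals at -0.40) but overlapped early ch+ (-0.54 ± 0.17, adjusted p = 0.0307, a sign that library totals reversed to 0.08).

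Sema6a, a transmembrane ligand of plexins A2 and A4, ran the other way. It was at 6.52, 7.29 and 7.82 in ctrl, 7.26 to 8.34 (median 7.92) in early ch- and 5.52 to 7.53 (median 6.88) in early ch+, and at 7.82, 8.00 and 8.04 in late HL60 and 8.30, 8.69 and 8.83 in late ML1. The lowest library was an early ch+ one and the highest a late ML1 one, with 1 ctrl library (6.52) among the lowest and 2 early ch- libraries (8.18 and 8.34) above all late HL60 ones, and the late and early ch+ groups did not overlap (1.55 ± 0.27, adjusted p = 8.04e-05), while late against ctrl (1.07 ± 0.33, adjusted p = 0.024) and early ch+ against early ch- (-1.18 ± 0.27, adjusted p = 0.00639) did overlap. Without ctrl replicate 374 the late against ctrl call was lost (0.73), as it was with the late ML1 libraries left out (0.74). Sema6d, a plexin A1 ligand, was higher in late (0.70 ± 0.14, adjusted p = 0.000681) with no overlap. Sema7a, the lipid-anchored ligand of Plxnc1, was lower in early ch+ than in ctrl (-0.59 ± 0.19, adjusted p = 0.0737) and higher in late than in early ch+ (0.99 ± 0.15, adjusted p = 1.56e-05), without overlap in either. The early ch+ call of Sema7a did not survive leaving out ctrl replicate 373, 374 or 375 or early ch+ replicate 523, 524 or 539 (-0.60 to -0.49) or library totals (-0.52). Sema5a, which carries thrombospondin repeats, was slightly lower in late (-0.39 ± 0.14, adjusted p = 0.0582), a sign that reversed to 0.30 with library totals, and this call was lost without ctrl replicate 373 or 375 or late replicate 581, 582 or 583 (-0.38 to -0.33). Against early ch+ Sema5a was lower as well (-0.29 ± 0.12, adjusted p = 0.0885), again reversed by library totals (0.32) and lost without early ch+ replicate 524, 525 or 541 or late replicate 581, 582 or 583 (-0.28 to -0.23).

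Netrins are secreted laminin-like cues, or in the netrin-G branch lipid-anchored ones, and 4 of 5 were tested. Ntn1, the ligand of Dcc and the Unc5 receptors (ENSMUSG00000020902, chr11:68209364-68400823), was at 7.87, 9.16 and 9.35 in ctrl, 6.76 to 8.01 (median 7.22) in early ch- and 9.05 to 9.94 (median 9.43) in early ch+, and at 6.70, 6.77 and 7.49 in late HL60 and 5.37, 5.88 and 5.97 in late ML1. It was low in early ch-, high in early ch+ and lowest in late ML1, and the ctrl libraries, 1 of which stood at 7.87, overlapped early ch- but not late. Early ch+ exceeded early ch- by 2.20 ± 0.29, adjusted p = 5.57e-06, early ch- was below ctrl (-1.51 ± 0.36, adjusted p = 0.0285) and late was below ctrl (-2.43 ± 0.36, adjusted p = 9.98e-06). The early ch- call was lost without ctrl replicate 374 or 375 (-1.33 to -1.23). Ntn4, a netrin of basement membranes, was at 8.69, 8.70 and 9.15 in ctrl, 7.96 to 8.93 (median 8.36) in early ch- and 8.94 to 9.94 (median 9.70) in early ch+, and 7.56 to 8.77 (median 8.30) in late. Early ch+ lay above early ch- and late without overlap, and late overlapped ctrl. The difference of early ch+ from early ch- was 1.14 ± 0.21, adjusted p = 0.000439. Late against ctrl (-0.66 ± 0.25, adjusted p = 0.074) took the other sign with library totals (0.03) and was lost without ctrl replicate 373, 374 or 375 or late replicate 399, 582 or 583 (-0.74 to -0.51).

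Ntng2, a netrin-G cue held on the membrane by a lipid anchor, was at 6.85, 6.85 and 6.86 in ctrl, 7.14 to 7.82 (median 7.41) in early ch- and 6.30 to 7.94 (median 7.53) in early ch+, and 7.09 to 8.55 (median 8.20) in late. Its 3 ctrl libraries were nearly equal and every late library was above them (1.19 ± 0.29, adjusted p = 0.00395), with late and early ch+ overlapping (0.67 ± 0.24, adjusted p = 0.0544). The call against early ch+ needed early ch+ replicate 539 and late replicates 582 and 583 (0.46 to 0.64 without each), and was lost with the late ML1 libraries left out (0.46). The slits, secreted ligands of robos, differed from each other in sign in late against ctrl. Slit2 was at 11.24, 11.60 and 11.64 in ctrl, 11.20 to 11.59 (median 11.34) in early ch- and 11.11 to 11.58 (median 11.29) in early ch+, and at 11.17, 11.27 and 11.44 in late HL60 and 10.36, 10.37 and 10.68 in late ML1. Its late HL60 libraries lay within the range of ctrl and early groups, and the late ML1 libraries below it. Slit3 was at 10.96, 11.21 and 11.45 in ctrl, 10.98 to 11.56 (median 11.46) in early ch- and 11.29 to 11.55 (median 11.34) in early ch+, and 11.51 to 12.22 (median 11.77) in late, above ctrl in every late library. Late against ctrl was -0.61 ± 0.19, adjusted p = 0.0224 for Slit2, a sign that library totals reversed to 0.09, and 0.59 ± 0.15, adjusted p = 0.00489 for Slit3. Without ctrl replicate 375 Slit2 lost its call (-0.53), and the pooled value rests on ML1, since with the late ML1 libraries left out it was -0.20. Against early ch+ Slit2 gave -0.43 ± 0.15, adjusted p = 0.0547, with the other sign under library totals (0.19) and in HL60 alone (0.04), and the call was lost without early ch+ replicate 539 or late replicate 581, 582 or 583 (-0.39 to -0.32).

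Ephrins, ligands held on the membrane, gave 1 call among 7 tested in late against ctrl (14.3%, with 21.5% of all tested genes called there). Efnb2, the transmembrane ligand of EphB4 that marks arteries (ENSMUSG00000001300, chr8:8617434-8661242), was at 7.75, 8.14 and 8.64 in ctrl, 7.38 to 8.29 (median 7.81) in early ch- and 8.30 to 9.23 (median 8.59) in early ch+, and at 6.32, 6.96 and 7.04 in late HL60 and 5.37, 6.03 and 6.35 in late ML1. Late libraries were below all others, and early ch+ libraries above all early ch- ones. The change was -1.83 ± 0.29, adjusted p = 2.93e-05 in late against ctrl and 0.87 ± 0.24, adjusted p = 0.0273 in early ch+ against early ch-. The 4 tested ephrins A had log2 fold changes between -0.24 and 0.55 in late against ctrl, with 0 called by limma and 0 at an unadjusted p under 0.05, and limma called neither Efnb1 (-0.31 ± 0.21, adjusted p = 0.362) nor Efnb3 (0.31 ± 0.36, adjusted p = 0.651).

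**Figure D2:**
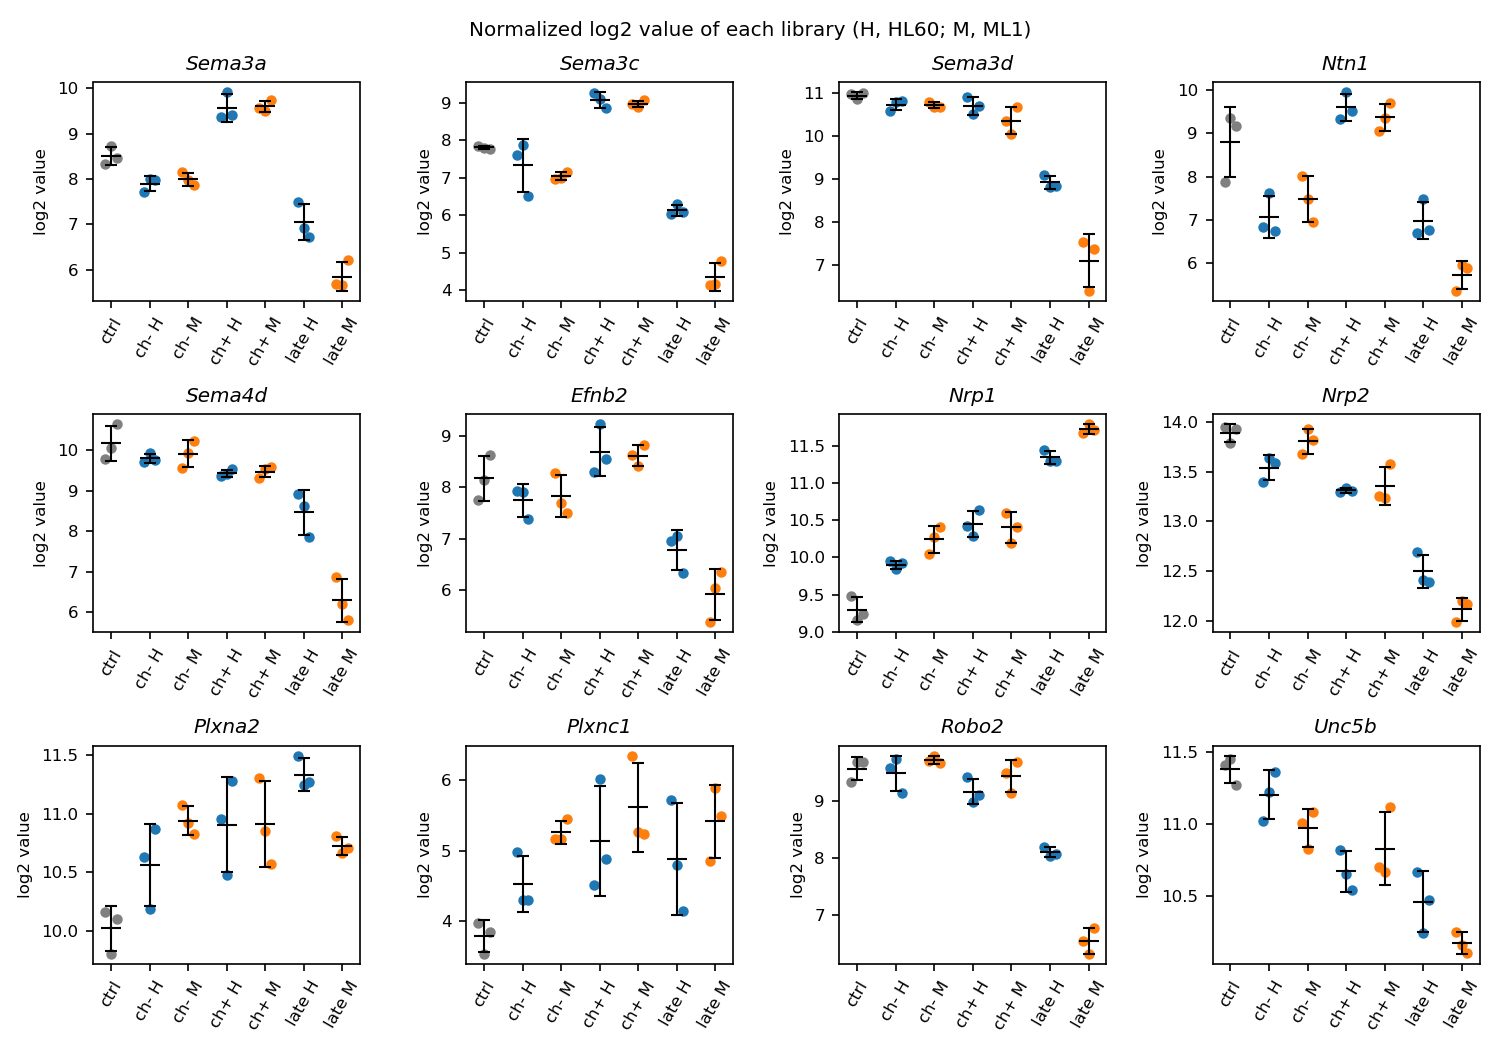
Normalized log2 value of each library (points) for 12 members in ctrl and in the early ch-, early ch+ and late groups of HL60 (blue) and ML1 (orange), with the mean and SD of each group as bars. Sema3a, Sema3c and Ntn1 have their highest libraries in early ch+ and their lowest in late ML1, Nrp1 is lowest in ctrl and highest in late, and Nrp2 falls from between 13.78 and 13.95 in ctrl to between 11.98 and 12.69 in late.

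The neuropilins, co-receptors of class 3 semaphorins, moved in opposite directions. Nrp1 (ENSMUSG00000025810, chr8:128358604-128503363) was at 9.16, 9.24 and 9.48 in ctrl, 9.84 to 10.41 (median 10.00) in early ch- and 10.20 to 10.64 (median 10.42) in early ch+, and at 11.29, 11.30 and 11.45 in late HL60 and 11.67, 11.72 and 11.79 in late ML1. Every engrafted library was above every ctrl library, and the late libraries were above all early ones. Nrp1 was higher in late (2.24 ± 0.15, adjusted p = 6.19e-11, a 4.72-fold higher normalized level), in early ch+ (1.13 ± 0.15, adjusted p = 1.29e-05) and in early ch- (0.78 ± 0.15, adjusted p = 0.00404) than in ctrl, and higher in late than in early ch+ (1.11 ± 0.12, adjusted p = 7.07e-08). Nrp2 (ENSMUSG00000025969, chr1:62703285-62818695) was at 13.78, 13.92 and 13.95 in ctrl, 13.39 to 13.93 (median 13.66) in early ch- and 13.23 to 13.57 (median 13.30) in early ch+, and at 12.39, 12.41 and 12.69 in late HL60 and 11.98, 12.16 and 12.20 in late ML1. Late libraries were below all others, and early ch+ below ctrl but overlapping early ch-. Nrp2 was lower in late (-1.58 ± 0.14, adjusted p = 2.92e-09) and in early ch+ (-0.55 ± 0.14, adjusted p = 0.0146) than in ctrl. Its smaller difference between early ch+ and early ch- (-0.34 ± 0.11, adjusted p = 0.0818) was lost with any 1 of 9 early libraries left out (early ch- 528, 543, 544 and 546, early ch+ 523, 524, 525, 538 and 539), at -0.35 to -0.29, and with library totals (-0.19).

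Levels between genes can be set side by side only per length. Per kilobase of merged exons, the log2 level of Nrp2 was 10.32 ± 0.09 in ctrl (SD, n = 3), the highest of the 49, against 6.01 ± 0.17 for Nrp1, and in late 8.74 ± 0.24 (SD, n = 6) against 8.24 ± 0.22. The difference in level between the neuropilins thus shrank from ctrl to late. Unc5b followed Nrp2 at 8.73. Among ligands on the same scale in ctrl, Slit3 stood at 8.60 ± 0.24, Sema7a at 7.98 ± 0.02 and Sema3d at 7.83 ± 0.07.

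Plexins, the transmembrane receptors that carry semaphorin signals into the cell, split into groups that rose and fell. Of the 11 matching symbols, Plxna4os1 and Plxna4os2 are antisense genes, and all 9 plexin genes were tested. Late against ctrl called 4 of them higher and 3 lower, where 10.2% and 11.4% of all tested genes were called. Plxna2, a receptor of class 3 and class 6 semaphorins, was at 9.80, 10.10 and 10.16 in ctrl, 10.18 to 11.08 (median 10.85) in early ch- and 10.47 to 11.30 (median 10.91) in early ch+, and at 11.24, 11.27 and 11.50 in late HL60 and 10.66, 10.71 and 10.81 in late ML1. Every engrafted library was above every ctrl library. The excess over ctrl was 1.01 ± 0.20, adjusted p = 0.0005 in late, 0.89 ± 0.20, adjusted p = 0.00751 in early ch+ and 0.73 ± 0.20, adjusted p = 0.0716 in early ch-, the last lost without ctrl replicate 373, 374 or 375 or early ch- replicate 529, 543, 544 or 546 (0.62 to 0.80) or with library totals (0.66). Plxnc1, the Sema7a receptor, was at 3.54, 3.85 and 3.98 in ctrl, 4.30 to 5.44 (median 5.07) in early ch- and 4.52 to 6.35 (median 5.25) in early ch+, and 4.14 to 5.89 (median 5.18) in late. All engrafted libraries exceeded ctrl and the engrafted groups overlapped each other. It was higher in early ch+ (1.59 ± 0.41, adjusted p = 0.0207) and in late (1.36 ± 0.41, adjusted p = 0.0192) than in ctrl, while early ch- did not pass (1.102 ± 0.41, adjusted p = 0.239). Without ctrl replicate 374 the early ch+ call was lost (1.46), and with the late ML1 libraries left out the late call (1.098).

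Plxna4, a receptor for Sema3a with neuropilin, was at 7.47, 7.71 and 8.01 in ctrl, 7.32 to 8.54 (median 7.95) in early ch- and 6.29 to 7.61 (median 7.20) in early ch+, and at 6.23, 6.98 and 7.15 in late HL60 and 4.45, 4.91 and 6.29 in late ML1. Late libraries were below ctrl, and 2 of the ML1 libraries below all others. Plxna3, the main plexin partner of Nrp2 in axons, was at 6.70, 7.12 and 7.97 in ctrl, 6.42 to 7.47 (median 6.87) in early ch- and 6.28 to 7.29 (median 7.07) in early ch+, and 5.22 to 6.59 (median 6.22) in late. Late was below ctrl without overlap and overlapped both early groups. They fell in late by 1.73 ± 0.42, adjusted p = 0.00358 (Plxna4) and by 1.21 ± 0.32, adjusted p = 0.00775 (Plxna3), the latter not called without ctrl replicate 375 (-0.85) or with library totals (-0.51). The mean of Plxna4 was 7.73 in ctrl, 6.79 in late HL60 and 5.21 in late ML1, so its pooled fall was larger than that in HL60. Plxnb1, the Sema4d receptor, was lower in late than in ctrl (-0.75 ± 0.23, adjusted p = 0.025) and in early ch+ than in early ch- (-0.74 ± 0.19, adjusted p = 0.0171), and the first call was lost without ctrl replicate 374 (-0.49) and with library totals (-0.05). Plxnd1, the Sema3e receptor, was higher in late (1.00 ± 0.18, adjusted p = 0.000148), as was Plxnb2, a class 4 receptor (0.53 ± 0.18, adjusted p = 0.0357, lost without ctrl replicate 373 at 0.48 and with the late ML1 libraries left out at 0.38).

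The netrin receptors Unc5b and Unc5c and the slit receptor Robo2 were called lower in late than in ctrl, and Unc5c alone of these took the other sign with library totals. Unc5b, a netrin receptor of vessels, was at 11.27, 11.41 and 11.45 in ctrl, 10.82 to 11.36 (median 11.05) in early ch- and 10.54 to 11.12 (median 10.68) in early ch+, and at 10.24, 10.47 and 10.66 in late HL60 and 10.11, 10.16 and 10.25 in late ML1. The early ch+ and late libraries were below every ctrl library. It fell in late (-1.06 ± 0.14, adjusted p = 3.21e-06) and in early ch+ (-0.63 ± 0.14, adjusted p = 0.00807) against ctrl, and the fall from early ch+ to late (-0.43 ± 0.12, adjusted p = 0.00913) took the opposite sign with library totals (0.18). Unc5c, which mediates repulsion by netrin, was at 9.71, 9.71 and 10.08 in ctrl, 9.49 to 9.84 (median 9.70) in early ch- and 8.99 to 9.91 (median 9.25) in early ch+, and 9.18 to 9.53 (median 9.32) in late. Late was just below ctrl (-0.48 ± 0.18, adjusted p = 0.0681), a call lost without ctrl replicate 373 or late replicate 581 or 582 (-0.47 to -0.36) and a sign reversed with library totals (0.21).

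Robo2, a receptor of the slits (ENSMUSG00000052516, chr16:73891839-74411825), was at 9.33, 9.67 and 9.69 in ctrl, 9.13 to 9.78 (median 9.67) in early ch- and 8.97 to 9.67 (median 9.27) in early ch+, and at 8.03, 8.05 and 8.19 in late HL60 and 6.31, 6.53 and 6.76 in late ML1. All late libraries were below all others and those of ML1 were lowest. The change was -2.25 ± 0.31, adjusted p = 3.65e-06 against ctrl, while early ch+ against early ch- gave -0.30 ± 0.25, adjusted p = 0.625. Robo1, its paralog, was at 9.67, 10.19 and 10.47 in ctrl, 9.52 to 10.19 (median 9.75) in early ch- and 9.82 to 10.32 (median 10.16) in early ch+, and 9.41 to 10.03 (median 9.68) in late. The 4 groups overlapped. With the lines pooled Robo1 did not pass in late against ctrl (-0.41 ± 0.18, adjusted p = 0.121), and the call against early ch+ (-0.38 ± 0.15, adjusted p = 0.0778) reversed in sign with library totals (0.23) and was lost without early ch+ replicate 523, 524, 525 or 541 or late replicate 397, 398 or 399 (-0.37 to -0.33).

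Eph receptors, the kinases that bind ephrins, passed the filter in 7 of 13 cases. Epha2, a receptor of ephrins A, was at 7.44, 7.54 and 8.16 in ctrl, 6.77 to 7.88 (median 7.37) in early ch- and 7.28 to 7.98 (median 7.56) in early ch+, and at 6.86, 7.02 and 7.08 in late HL60 and 6.25, 6.49 and 6.51 in late ML1. Late libraries were below all ctrl libraries. Ephb2, a receptor of ephrins B, was at 6.19, 6.29 and 7.14 in ctrl, 5.74 to 7.48 (median 6.93) in early ch- and 5.37 to 6.82 (median 5.94) in early ch+, and 4.72 to 5.89 (median 4.83) in late. Late was below ctrl and overlapped early ch+. The falls against ctrl were -1.01 ± 0.26, adjusted p = 0.00627 for Epha2, which was not called with the late ML1 libraries left out (-0.73) or with library totals (-0.32), and -1.55 ± 0.38, adjusted p = 0.00439 for Ephb2. Ephb4, the receptor of Efnb2, gave 0.23 ± 0.26, adjusted p = 0.633. The other 4 tested Eph receptors had log2 fold changes between -0.70 and 0.67 in late against ctrl.

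The 16 members called in none of the pooled or between-line comparisons had log2 fold changes between -0.86 and 0.87 in the 5 pooled ones. They were 6 ephrins, 5 Eph receptors, 2 plexins, 2 membrane-bound semaphorins and Ntng1.

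The lines were then taken apart. Late HL60 against ctrl called 22 members (13.7% of all genes) and late ML1 30 (22%). In early ch+ the counts were 8 (5.33%) and 9 (6.69%), in early ch- 2 (1.57%; 1 without ctrl replicate 374 or 375 or early ch- replicate 527 or 529) and 3 (2.34%), and for early ch+ against early ch- within a line 7 in HL60 (3.92%) and 7 in ML1 (4.25%). The within-line comparisons of early ch+ with early ch- split the libraries of the pooled comparison. For members picked by the pooled call they are no separate test. Sema3a gave 1.67 ± 0.24, adjusted p = 3.08e-05 in HL60 and 1.61 ± 0.24, adjusted p = 6.19e-05 in ML1, Sema3c 1.75 and 1.94, Ntn1 2.52 and 1.88, and Ntn4 1.02 and 1.26. Each of these 4 ligands, out of the 6 members called higher in early ch+ with the lines pooled, was called higher with either leukemia. Sema3e and Efnb2 were called in neither line. In the comparisons with ctrl or early ch-, a single line gave 10 calls that the lines pooled did not. In late against ctrl these were Efna4 (1.19 ± 0.44, adjusted p = 0.0835) and Robo1 (-0.63 ± 0.18, adjusted p = 0.0233) in HL60 and Sema7a (0.56 ± 0.20, adjusted p = 0.0481) in ML1. In early ch+ against ctrl they were Ephb6 in HL60 (1.53 ± 0.38, adjusted p = 0.0158) and Ntn4 (0.94 ± 0.26, adjusted p = 0.0307) and Sema6a (-0.95 ± 0.32, adjusted p = 0.0973) in ML1. In early ch+ against early ch- they were Ephb2 (-1.80 ± 0.38, adjusted p = 0.00386), Nrp1 (0.55 ± 0.15, adjusted p = 0.034) and Unc5b (-0.53 ± 0.15, adjusted p = 0.0468) in HL60 and Plxna4 in ML1 (-1.23 ± 0.39, adjusted p = 0.0858). For none of these 10 was the difference between the lines itself called by limma.

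In late disease the lines themselves were compared. HL60 and ML1 differed in 11 members, all 11 higher in HL60 and 7 without late replicate 398 or 581, against 4.1% of all genes (3.16% higher in HL60, 0.94% lower). For 10 of the 11, late ML1 was the further below ctrl. The largest was Sema4d, 2.17 ± 0.26, adjusted p = 6.75e-07, followed by Sema3d (1.81 ± 0.21, adjusted p = 3.66e-07), Sema3c (1.78 ± 0.30, adjusted p = 0.000162), Plxna4 (1.57 ± 0.39, adjusted p = 0.0141) and Robo2 (1.56 ± 0.20, adjusted p = 2.82e-06). Among the 11, the libraries of the lines overlapped for Plxna4 and Sema3b. The members were picked by this difference, so the lack of overlap in the others is no separate support. Plxna2 was the exception in direction, being further above ctrl in HL60 (1.31) than in ML1 (0.71), with a difference of 0.61 ± 0.19, adjusted p = 0.0887. The calls of Plxna2 (lost without any 1 late library or early ch- replicate 527, 0.53 to 0.66), Nrp2 (without early ch- replicate 546 or late replicate 397, 398, 581 or 583, 0.28 to 0.42), Sema3b (without late replicate 397, 398 or 581, 0.56 to 1.18), Ntn1 (398 or 581, 0.99 to 1.06) and Plxna4 (397 or 582, 1.19 to 1.39) rest on single libraries. With library totals those of Nrp2 (0.14), Plxna2 (0.36) and Sema3b (0.84) were lost.

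At the early stage no member was called by limma between HL60 and ML1, neither in early ch+ (0 of 49, with 4 at an unadjusted p under 0.05 and 0.0154% of all genes called) nor in early ch- (0 of 49, with 5 at an unadjusted p under 0.05, against 0.0539%). The test of whether the early ch+ to early ch- difference itself differed between the lines also called 0 of 49 (3 at an unadjusted p under 0.05, against 0.0077% of all genes). All 3 counts were also 0 with quantile or library-total scaling, with array weights, without the variance trend and without the filter. Missing the threshold does not show that the lines were equal.

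**Figure D3:**
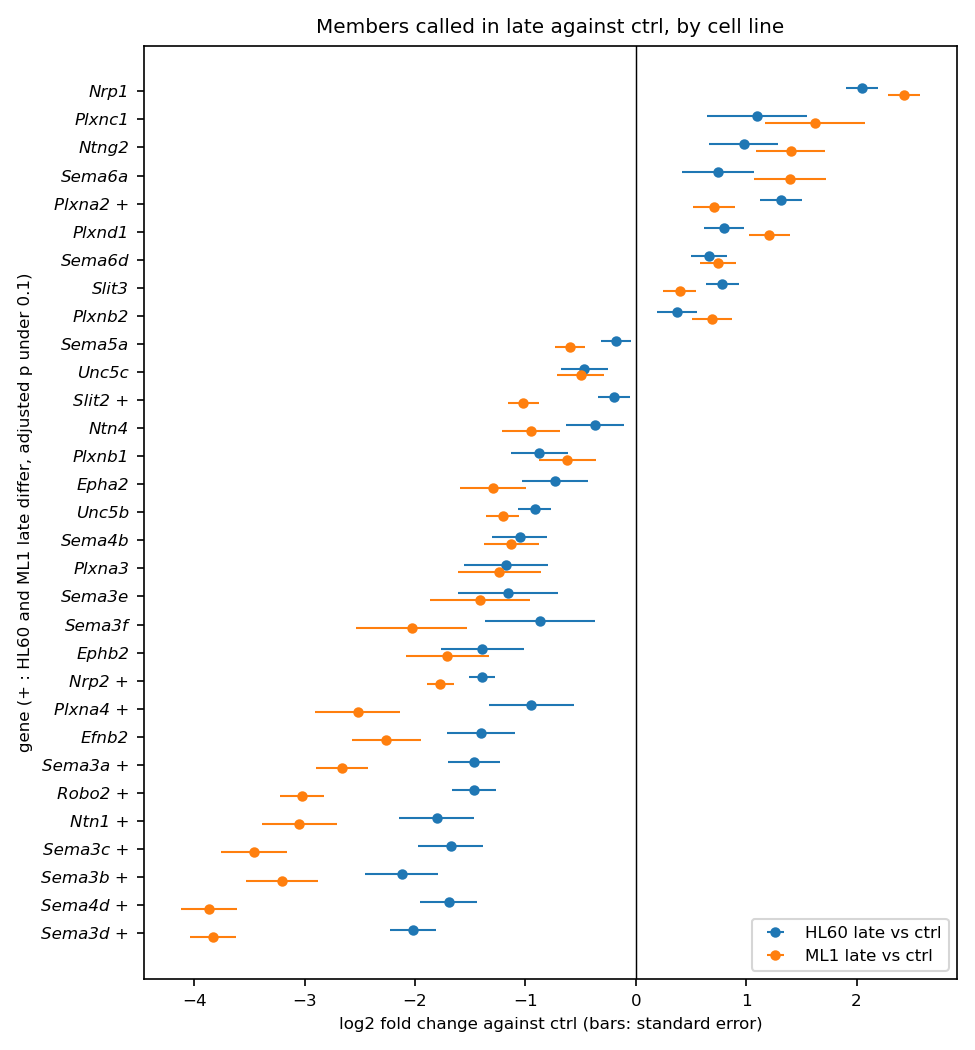
Log2 fold change against ctrl, with standard errors as bars, of the 31 members called in late against ctrl, for late HL60 (blue) and late ML1 (orange) apart. A plus after a name marks the members whose HL60 and ML1 late libraries differed at an adjusted p under 0.1. Class 3 semaphorins, Sema4d, Ntn1 and Robo2 lie further below 0 in ML1, and Slit2, Ntn4, Sema5a and Unc5c take the other sign when the pooled comparison is scaled to library totals.

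Partners and effectors of the pathway outside the symbol pattern were counted from a list of 50, of which 49 were in the table and 40 were tested. Late against ctrl called 4 higher and 17 lower (median -0.60 against 0.02 for all genes, of which 21.5% were called), late against early ch+ 3 higher and 15 lower (19.7% of all genes), early ch+ against ctrl 2 higher and 3 lower (6.16%), early ch- against ctrl 1 and 1 (1.92%), and early ch+ against early ch- 4 higher and 1 lower (6.25%). Fyn, a kinase downstream of plexins and Dcc, fell in late (-2.33 ± 0.23, adjusted p = 2.17e-08), as did Farp2, a Rac exchange factor of Sema3a signaling (-2.16 ± 0.26, adjusted p = 4.82e-07), and the robo effectors Srgap1 (-1.86 ± 0.25, adjusted p = 3.29e-06) and Srgap3 (-1.64 ± 0.29, adjusted p = 0.000115). Flrt3, a ligand of Unc5 proteins, fell as well (-2.55 ± 0.41, adjusted p = 2.9e-05), while the L1-family adhesion molecule Chl1 was higher (1.13 ± 0.18, adjusted p = 3.02e-05). Neo1, a netrin receptor, was lower in late with the lines pooled (-0.65 ± 0.20, adjusted p = 0.0259) and differed between them, late HL60 being above late ML1 (0.97 ± 0.13, adjusted p = 6.9e-06). Dcc, the classical one, stayed below the filter at group means of 1.00 in ctrl, 1.46 in early ch- and 1.18 in early ch+. Dscam, Crmp1, Gap43 and Cntn2 were below 0 in every library. In late, 10 of the 40 partners differed between the lines (4.1% of all genes), all of them higher in HL60.

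Markers of other cell types moved with these results. The osteoblast list, led by Col1a1, summed to 20.26 to 20.71 (median 20.41) in ctrl, 19.84 to 20.08 (median 19.91) in early ch+, 18.62 to 19.01 (median 18.95) in late HL60 and 16.36 to 17.04 (median 16.51) in late ML1, and 8 of its 10 genes were called lower and 1 higher in late against ctrl. Between the lines in late, 9 of 10 were higher in HL60. The osteoblast list thus followed the order of Sema3d, Sema4d and Robo2 (ctrl, then late HL60, then late ML1), and its part in their result was not tested. The chondrocyte list, led by Col2a1, summed to 16.47 to 17.44 (median 16.75) in ctrl, 15.66 to 16.68 (median 16.18) in early ch- and 14.14 to 15.35 (median 14.75) in early ch+. In late it summed to 13.74 to 14.33 (median 14.27) in HL60 and 11.77 to 12.37 (median 12.04) in ML1, the same order of ctrl, late HL60 and late ML1 as the osteoblast list. Of its 11 tested genes, 11 were called lower in late than in ctrl, 10 in early ch+ than in ctrl and 10 in early ch+ than in early ch-. It fell where Sema3a, Sema3c and Ntn1 rose, between early ch- and early ch+. The CAR cell list, led by Cxcl12, summed to 15.62 to 16.24 (median 15.83) in ctrl, 15.70 to 16.65 (median 16.37) in early ch-, 16.35 to 16.98 (median 16.72) in early ch+ and 16.81 to 17.11 (median 16.91) in late, with 8 of 10 called higher in early ch+ and 7 higher and 1 lower in late than in ctrl. In early ch- against ctrl 1 of 10 was called higher by limma, with 8 at an unadjusted p under 0.05. The median log2 fold change of the list there was 0.54, against 0.01 over all tested genes. In late against early ch+ 3 were higher and 3 lower (median 0.10, against 0.02). Nrp1 was called higher in early ch-, early ch+ and late than in ctrl, and in late than in early ch+. The part of these lists in the members' results was not tested.

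Smooth muscle markers, led by Rgs5, summed to 14.41 to 15.28 (median 14.81) in ctrl, 14.00 to 14.73 (median 14.41) in early ch-, 13.27 to 13.66 (median 13.44) in early ch+ and 14.00 to 14.22 (median 14.17) in late, with 8 of 10 called lower in early ch+ than in early ch-. Schwann cell markers, led by S100b and with Gfap under 0 in every library, had 6 of 8 tested genes lower and 1 higher in early ch+ than in early ch-, the comparison in which Plxnb1 and Sema6a were lower, and summed to 8.77 to 9.15 (median 8.82) in early ch- and 8.09 to 9.06 (median 8.77) in early ch+. Blood cell and red cell markers were higher in both early groups despite the sort. The blood cell list, led by Lyz2, summed to 8.04 to 8.88 (median 8.63) in ctrl, 10.36 to 11.37 (median 10.66) in early ch-, 9.97 to 11.18 (median 10.84) in early ch+ and 6.87 to 8.03 (median 7.61) in late, with 7 of 7 tested genes called higher in early ch+ than in ctrl and 6 in early ch-. The red cell list, led by Hbb-bs, summed to 8.51 to 9.59 (median 9.01) in ctrl, 12.30 to 13.31 (median 12.90) in early ch-, 12.08 to 13.64 (median 13.04) in early ch+ and 6.86 to 7.36 (median 7.32) in late, with 7 and 6 of 9 called higher in early ch+ and early ch- than in ctrl. Neither list had a call between early ch+ and early ch-, with 0 of 7 and 0 of 9 genes called by limma and 0 at an unadjusted p under 0.05. Skeletal muscle markers, led by Acta1, had 5 of 5 tested genes higher in early ch+ than in ctrl and summed to a median of 5.95 in ctrl, 6.51 to 8.52 (median 7.71) in early ch-, 7.35 to 9.32 (median 8.47) in early ch+ and 5.30 to 5.46 (median 5.37) in late. In late against early ch+, 7 of 7 blood cell, 8 of 9 red cell and 5 of 5 skeletal muscle genes were called lower. In the same comparison 8 of 10 osteoblast genes were lower and 1 higher, and 6 of 10 smooth muscle genes were higher. By limma, endothelial markers gave 0 of 8 called in any comparison of an engrafted group with ctrl (2 at an unadjusted p under 0.05 in late and 0 in either early group) and 4 of 8 lower in late than in early ch+, and proliferation markers, led by Mki67, 2 of 6 lower in late and 1 of 6 higher in early ch+ than in ctrl. The proliferation list summed to medians of 10.02 in ctrl and 9.18 in late. Of 3 genes of the reporter and the sort (Nes, Pecam1 and Ptprc), 0 were called by limma in late against ctrl (1 at an unadjusted p under 0.05), 1 was higher in early ch+ than in ctrl and 2 were lower in late than in early ch+. Nes itself was at means of 7.39 in ctrl and 7.30 in late, with 6.92 in late HL60 and 7.68 in late ML1. The part of these markers in the members' results was not tested.

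The 6 members called higher in early ch+ than in early ch- (Sema3a, Sema3c, Sema3e, Ntn1, Ntn4 and Efnb2) were picked by that call alone, and the bases before their transcription starts are shown to let these genes be compared. RefSeq (GRCm38.p6) gave a promoter for 58 of the 69 members and for 5 of these 6, Ntn1 being without an entry. The 250 bases before the start are printed 5' to 3' on the gene's strand for 4 of them. That of Sema3c is transcribed in the GENCODE annotation and is left out. The windows of Efnb2 and Sema3e lie outside annotated genes, and those of Sema3a and Ntn4 lie in introns of longer transcripts of the same genes. Capitals mark matches, on either strand, to GGGCGG (in 32.7% of all 32851 promoter windows of this length), CCAAT (33.8%), TATAAA (12.4%), TGANTCA (6.75%) and CAGCTG (13%), which do not contain one another.
Sema3a, chr5:13396534-13396783 (plus strand): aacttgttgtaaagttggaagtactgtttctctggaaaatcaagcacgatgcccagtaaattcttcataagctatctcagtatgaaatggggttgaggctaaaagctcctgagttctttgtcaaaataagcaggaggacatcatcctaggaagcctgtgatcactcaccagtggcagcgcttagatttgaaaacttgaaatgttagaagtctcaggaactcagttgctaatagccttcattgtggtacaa
Sema3e, chr5:14025026-14025275 (plus strand): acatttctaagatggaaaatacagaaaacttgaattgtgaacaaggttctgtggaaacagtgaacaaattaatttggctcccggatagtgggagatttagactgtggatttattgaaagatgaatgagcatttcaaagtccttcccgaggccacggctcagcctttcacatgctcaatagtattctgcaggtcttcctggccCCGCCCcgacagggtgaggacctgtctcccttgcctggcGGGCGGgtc
Ntn4, chr10:93640799-93641048 (plus strand): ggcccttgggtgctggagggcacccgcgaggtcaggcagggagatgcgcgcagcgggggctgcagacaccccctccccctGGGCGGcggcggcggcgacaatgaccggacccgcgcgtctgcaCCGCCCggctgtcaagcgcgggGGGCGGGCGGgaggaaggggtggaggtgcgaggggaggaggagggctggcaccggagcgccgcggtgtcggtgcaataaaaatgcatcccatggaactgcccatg
Efnb2, chr8:8661243-8661492 (minus strand): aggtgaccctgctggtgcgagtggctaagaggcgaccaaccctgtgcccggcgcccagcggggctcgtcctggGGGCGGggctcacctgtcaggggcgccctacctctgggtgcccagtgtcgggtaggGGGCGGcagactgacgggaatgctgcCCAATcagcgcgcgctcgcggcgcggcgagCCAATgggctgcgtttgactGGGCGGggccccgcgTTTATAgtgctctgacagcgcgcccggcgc

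Of the 5 members with an entry, 4 had GGGCGG in the window, and whether this is more than other genes have was not tested. The Ntn4 window held 4 GGGCGG matches, 2 of them overlapping, that of Efnb2 3 GGGCGG, 2 CCAAT and 1 TATAAA, that of Sema3e 2 GGGCGG and that of Sema3c, not printed, 3 GGGCGG, while the Sema3a window held none of the 5 motifs. GC content was 78.4% in Sema3c, 73.2% in Ntn4 and 72% in Efnb2 but 48% in Sema3e and 40.8% in Sema3a, around a median of 52.4% over all windows. A match describes the letters in the window and does not show that a factor binds there.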

How the data were processed

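RNA of 21 libraries of sorted Nes-low cells was amplified from small inputs and sequenced by the submitters. Per the submitters' processing notes, reads were aligned with STAR 2.5.1b to mm10, quantified with RSEM 1.2.29 and normalized with DESeq2 1.10.1. The authors deposited regularized log2 values (-2.33 to 22.44 here), which pull low genes together and understate their changes. The methods name log10, but a top value of 22.44 on that scale would be impossible, so the values were read as log2. Ensembl IDs were matched to symbols for 99.38% of 26852 genes. Genes whose mean passed a filter near 3.3 were fitted with limma 3.58.1 in R 4.3.3 (group means, variance trend, 2-sided, Benjamini-Hochberg over 12980 genes), with 4 groups and, for the lines, 7. Members were named by role: all called ones with fold change, and up to 3 per role with every library. Marker and partner lists were counted. The members and lists were chosen with earlier results of these data known. Quantile and total scaling, no filter, no trend, array weights, other group sets, a threshold of 0.05 and leaving out each library were tried.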

Additional observations from a re-analysis of the deposited data

Results flagged for a closer look

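In 9 of 99 groups of 6 libraries examined over the 33 named members, 1 library stood apart from the other 5, where chance alone gives about 1 in 20. Ephb2 was high in late HL60 replicate 399, at 5.89 where the other 5 libraries of the pooled group lay between 4.72 and 4.91. Nrp2 was high in early ch+ ML1 replicate 541, at 13.57 where the other 5 libraries of the pooled group lay between 13.23 and 13.34. Ntng2 was low in late HL60 replicate 399, at 7.09 where the other 5 libraries of the pooled group lay between 8.01 and 8.55. Late HL60 replicate 399 thus stood apart for both Ephb2 and Ntng2. Plxnb1 was low in early ch- ML1 replicate 543, at 8.50 where the other 5 libraries of the pooled group lay between 9.22 and 9.47. Plxnd1 was low in early ch- HL60 replicate 528, at 9.57 where the other 5 libraries of the pooled group lay between 10.12 and 10.44. Robo2 was low in early ch- HL60 replicate 529, at 9.13 where the other 5 libraries of the pooled group lay between 9.57 and 9.78. These last 3 are early ch- libraries of both lines. Sema3b was low in early ch- ML1 replicate 543, at 8.05 where the other 5 libraries of the pooled group lay between 8.59 and 8.87. Slit3 was low in early ch- HL60 replicate 527, at 10.98 where the other 5 libraries of the pooled group lay between 11.39 and 11.56. Slit3 was high in early ch+ HL60 replicate 525, at 11.55 where the other 5 libraries of the pooled group lay between 11.29 and 11.38. No library was left out for this.

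The late effects of HL60 and ML1 differed for 11 members. The log2 difference of HL60 from ML1 was Nrp2 0.38, Ntn1 1.25, Plxna2 0.61, Plxna4 1.57, Robo2 1.56, Sema3a 1.19, Sema3b 1.08, Sema3c 1.78, Sema3d 1.81, Sema4d 2.17 and Slit2 0.82, each with the HL60 mean above the ML1 mean. Osteoblast markers differed between the same libraries (9 of 10 higher in HL60), and so did 7 of 11 chondrocyte markers, and their part in these differences was not tested. The treatment field reads as unengrafted for late ML1 alone. For 10 of the 11 members (all but Plxna2) the late ML1 mean lay further from ctrl than the late HL60 mean. These members were picked by the difference between the lines, so this tally is no test of the label. The summed normalized signal ran from 7.26 to 7.46 in late ML1, from 8.41 to 9.02 in late HL60 and from 11.86 to 14.23 in ctrl, in units of 1000000.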

How the results depend on the processing

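No paired analysis was run because the groups share no replicate numbers and the labels do not say which early ch+ and early ch- libraries came from the same marrow. Their replicate numbers lie a constant 4 apart in HL60 and 5 apart in ML1, but no label says that this marks pairs, so these groups were compared as if independent. If libraries were matched by that offset, each of the 9 members called between the early groups would keep 1 sign in every match. So would some members not called there, Sema4d and Ntng1 among them. The share of all genes that would do so was not counted, and a paired difference was not tested. Of the 90 member calls (79 in the pooled comparisons and 11 between the lines in late), scaling to library totals kept direction and threshold in 64, lost 17 and reversed 9. Lost with library totals in late against ctrl were Epha2 (-0.321), Sema4b (-0.396), Plxna3 (-0.513), Sema3f (-0.757), Plxnb1 (-0.054) and Sema3e (-0.589), in late against early ch+ Epha2 (-0.286), Ephb2 (-0.383), Plxna4 (-0.485), Plxna3 (-0.269) and Sema3f (-0.642), in the early comparisons Sema7a in early ch+ against ctrl (-0.516), Plxna2 in early ch- against ctrl (0.657) and Nrp2 in early ch+ against early ch- (-0.189), and between the lines in late Nrp2 (0.135), Plxna2 (0.363) and Sema3b (0.837). Reversed in late against ctrl were Ntn4 (0.033), Sema5a (0.302), Slit2 (0.085) and Unc5c (0.209), and in late against early ch+ Unc5b (0.183), Sema5a (0.322), Robo1 (0.233), Sema4b (0.080) and Slit2 (0.188). This scaling shifts every gene of a comparison by the same amount, and with it 64% of all genes were called in late against ctrl and 69.6% in late against early ch+. HL60 alone reversed Slit2 in late against early ch+ (0.037). The cause was not tested.

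Quantile normalization kept 82 of 90 and lost 8, leaving out the filter kept 73, leaving out the variance trend kept 76, array weights kept 86 and a threshold of 0.05 kept 76, with direction unchanged in all of these. Of the 79 pooled calls, fitting the compared groups only kept 76, a term for the line kept 79, HL60 alone 48 and ML1 alone 70. Leaving out the 3 late ML1 libraries, whose treatment label is at odds, was chosen after seeing the data. It kept 60 of 79, with 22 members called in late against ctrl and 20 in late against early ch+ (12.4% and 11.4% of all genes). Fewer libraries were compared there and in the single lines.

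The number of members called was within 1.5 times the reported one except as follows. Early ch- against ctrl gave 1 without the filter (0.689% of all genes), where more genes are adjusted for. Late against early ch+ gave 15 in HL60 alone (9.91%). HL60 against ML1 in late gave 7 without the filter (1.59%), 7 without the variance trend (3.03%) and 21 with array weights (9.12%). HL60 early ch- against ctrl gave 1 with library totals (1.37%) and without the variance trend (1.06%). Where not explained by the alternative itself, the cause was not tested.

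With 1 library left out, late against ctrl gave 26 to 32 members, early ch+ against ctrl 6 to 10, early ch- against ctrl 1 to 3, early ch+ against early ch- 7 to 11, late against early ch+ 25 to 28 and HL60 against ML1 in late 7 to 13. The between-line counts in early ch+ and early ch- stayed at 0. Of the 90 calls, 26 were lost with at least 1 library left out and 0 were reversed. Regularized values hold genes with few reads close together, which limits what members with low values can show, and the read depth of each library is unknown.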
